A study of Mus musculus with 2 samples.

Results

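The MHC class II genes described here are H2-Aa, H2-Ab1, H2-Eb1, H2-DMa, H2-DMb1, Cd74 and Ciita. They were taken by symbol, and all 7 were present among the 27998 genes of each count table, so no expression value was used to choose them. Class II molecules are pairs of an alpha and a beta chain that carry peptides from the endosome to the cell surface, where CD4+ T cells read them. H2-Aa and H2-Ab1 encode the chains of the I-A molecule, and H2-Eb1 encodes the beta chain of I-E, whose alpha chain C57BL/6 mice do not make. Cd74 encodes the invariant chain, which fills the peptide groove of a new class II molecule. H2-DMa and H2-DMb1 encode H2-DM, which exchanges the last fragment of the invariant chain for a peptide. Ciita encodes the co-activator that the promoters of class II genes depend on. Microglia, the resident macrophages of the spinal cord, are known for low class II levels in healthy tissue and for raising them after interferon gamma, while border macrophages, dendritic cells and B cells can hold high levels.

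The study set out to remove the transcription factor Runx1 from microglia. Both libraries came from mice of the transgenic strain Cx3cr1-CreERT2-YFP::flxRunx1 on C57BL/6J, so the Cre and YFP alleles and the floxed gene are listed for the control library too. The library labelled knock-out (KO-labelled) came from mice given tamoxifen by intraperitoneal injection, 1 mg once a day for 5 days, and the library labelled wild type (WT-labelled) came from mice given vehicle. Spinal cords were taken 4 weeks after the first injection, digested with collagenase at 37 °C for 30 min, and YFP+ cells were sorted and loaded for droplet-based 3′ RNA sequencing. Recombination and the sorting mark both rest on Cx3cr1, which is active in microglia and in other macrophages and monocytes. The sources used here do not give the age or the number of animals per library.

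There was 1 library per group, so no difference between the libraries could be tested. Genotype, tamoxifen, animals and library cannot be told apart. The KO-labelled library held 2604 barcodes, 13075939 UMIs (counted molecules) and a median of 3715.5 UMIs per barcode, and the WT-labelled library held 4582 barcodes, 37446978 UMIs and a median of 6376. A filter on detected genes and mitochondrial UMIs left 2596 and 4582 barcodes. Clusters made without the class II genes gave 1359 microglia-like barcodes (52.3%) in the KO-labelled library and 2197 (47.9%) in the WT-labelled library. Endothelial-like barcodes numbered 836 and 1638, and pericyte- or smooth muscle-like barcodes 138 and 191, although the sort was for YFP. The microglia-like cells of the KO-labelled library lay in cluster 2 (1352 barcodes) and cluster 0 (7 barcodes), and all 2197 of the WT-labelled library lay in cluster 0. Runx1 was at 180 CPM (UMIs of the gene per 1000000 UMIs of the class) in KO-labelled microglia-like cells and at 92.5 CPM in WT-labelled ones, but 3′ counts need not cover the deleted part of the gene and so do not check the labels.

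In microglia-like cells the chain genes, the name used here for H2-Aa, H2-Ab1, H2-Eb1 and the invariant chain gene Cd74, stood at lower levels than the H2-DM genes. Levels are given as CPM of the summed cells of a class, with exact Poisson 95% intervals that, like all intervals here, cover counting error only. They are 3′ molecule counts with no length term. H2-DMa stood at 462 CPM (445 to 479, 2855 UMIs) in the KO-labelled library and at 424 CPM (414 to 435, 6730 UMIs) in the WT-labelled library. H2-DMb1 stood at 168 CPM in the KO-labelled library and at 147 CPM in the WT-labelled library. Both H2-DM genes were above all 4 chain genes, of which Cd74 was highest and close to equal in the libraries. Cd74 was at 124.6 CPM in the KO-labelled library and 123.4 CPM in the WT-labelled library. H2-Ab1 was at 60.9 CPM in the KO-labelled library and 37.8 CPM in the WT-labelled library. The alpha chain gene was lower still: H2-Aa was at 24.0 CPM in the KO-labelled library and 20.1 CPM in the WT-labelled library. H2-Eb1 was at 20.4 CPM in the KO-labelled library and 14.7 CPM in the WT-labelled library. Ciita was barely seen. It had 0 UMIs in 1359 microglia-like cells of the KO-labelled library, which allows a share of cells with a UMI of up to 0.221%, and 3 UMIs in 2197 of the WT-labelled library. In both libraries the order of levels was H2-DMa, H2-DMb1, Cd74, H2-Ab1, H2-Aa, H2-Eb1 and Ciita. H2-Aa and H2-Eb1 were neighbours whose intervals overlapped in the KO-labelled library.

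The genes lie on 3 chromosomes of the GRCm38 assembly. H2-DMa (chr17:34119541-34139101), H2-DMb1 (chr17:34153072-34160230), H2-Ab1 (chr17:34257689-34269419), H2-Eb1 (chr17:34305867-34316674) and, on the minus strand, H2-Aa (chr17:34282744-34287823) sit together in the MHC, Ciita is at chr16:10480059-10528418 and Cd74 at chr18:60803848-60812652. The H2-DMa gene model overlaps Brd2, a widely expressed gene on the other strand, and Ciita overlaps Dexi on the other strand. The sources used here do not say whether counting used strand.

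**Figure D1:**
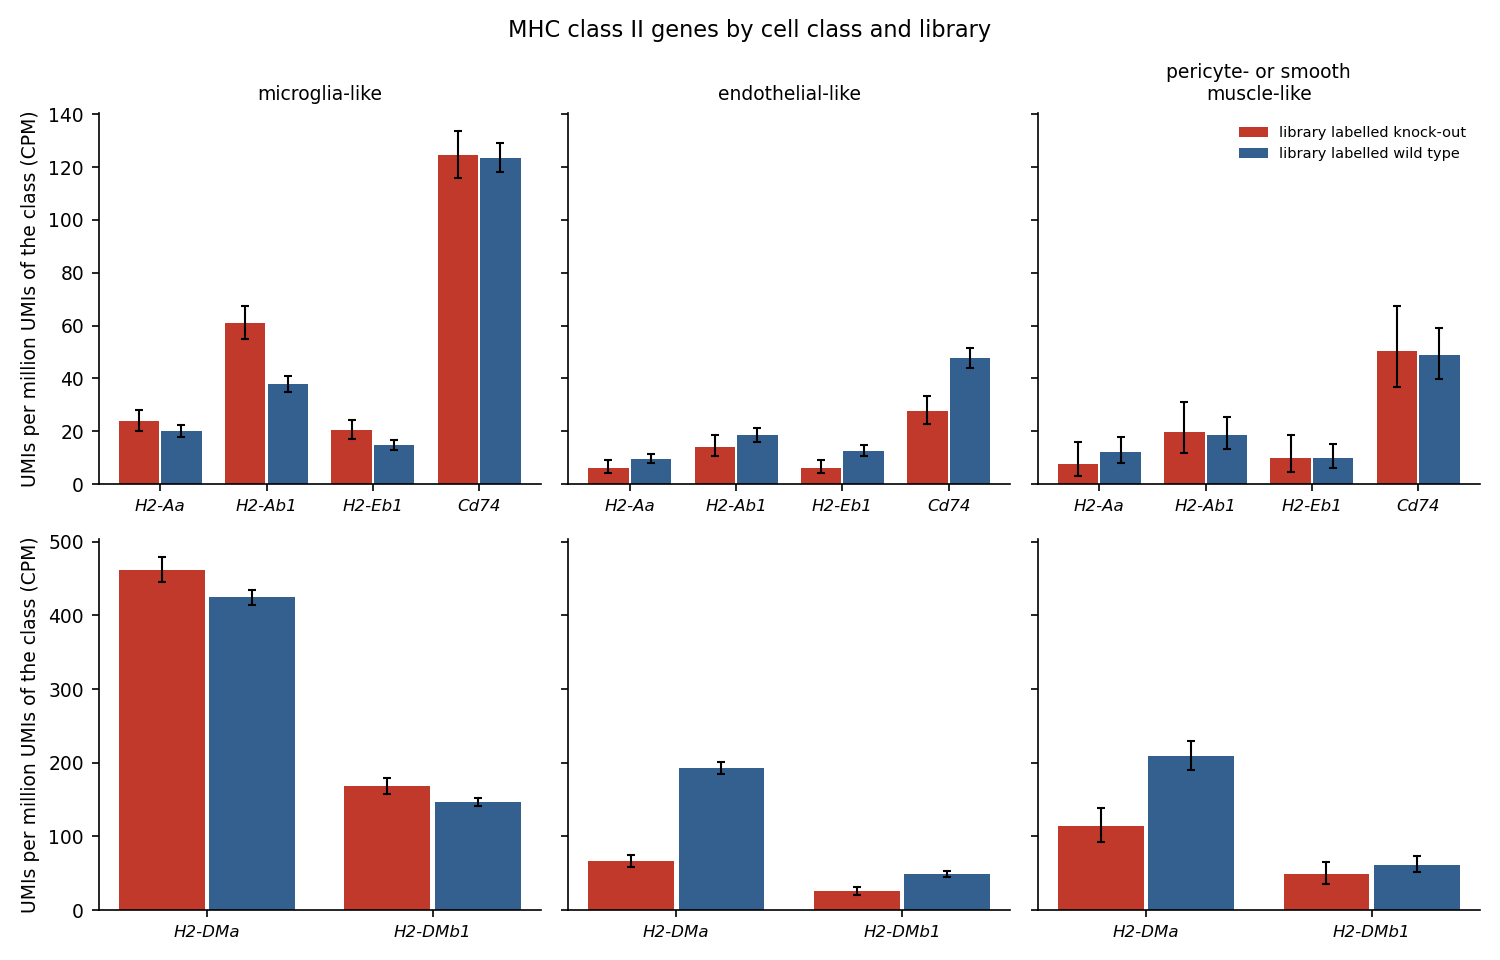
Level of each class II gene in 3 cell classes, in CPM, for the KO-labelled library (red, left of each pair) and the WT-labelled library (blue, right). Bars are sums over the cells of 1 library and error bars are exact Poisson 95% intervals. H2-DMa reached 462 and 424 CPM in microglia-like cells, and in endothelial-like cells 66.8 and 193 CPM.

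Class II promoters share an X box, bound by the RFX complex, and a Y box, bound by NF-Y, on which the product of Ciita assembles. The 250 bases before the start of 3 genes are shown, because H2-Aa and H2-Eb1 were held by few barcodes while H2-DMb1 was spread over many. Sequences are from RefSeq, build GRCm38.p6, 5′ to 3′ on the strand of the gene. Capitals mark the Y box core TGATTGG and the X box core AGCAAC, each searched on both strands with no overlap between matches.
H2-Aa (chr17:34287824-34288073, minus strand): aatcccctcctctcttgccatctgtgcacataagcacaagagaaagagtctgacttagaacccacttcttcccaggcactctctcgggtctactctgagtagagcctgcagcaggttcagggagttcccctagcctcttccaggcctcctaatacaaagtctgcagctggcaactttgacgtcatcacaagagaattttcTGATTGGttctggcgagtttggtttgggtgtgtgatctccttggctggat
H2-Eb1 (chr17:34305617-34305866, plus strand): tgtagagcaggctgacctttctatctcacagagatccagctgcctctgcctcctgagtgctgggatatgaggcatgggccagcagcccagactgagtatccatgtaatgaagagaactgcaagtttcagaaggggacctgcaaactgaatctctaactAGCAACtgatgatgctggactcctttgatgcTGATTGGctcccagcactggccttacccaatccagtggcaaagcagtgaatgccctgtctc
H2-DMb1 (chr17:34152941-34153190, plus strand): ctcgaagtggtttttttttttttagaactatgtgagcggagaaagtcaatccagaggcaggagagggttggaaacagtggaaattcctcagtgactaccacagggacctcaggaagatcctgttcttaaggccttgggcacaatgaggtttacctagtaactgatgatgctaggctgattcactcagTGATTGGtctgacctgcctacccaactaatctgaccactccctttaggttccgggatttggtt

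The Y box core began 50 bases before the start in H2-Aa, 61 in H2-Eb1 and 63 in H2-DMb1, in each case on the strand of the gene. H2-Eb1 also held the X box core, 92 bases before its start. The exact letters AGCAAC were not found in the H2-Aa and H2-DMb1 windows. A box with other letters would be missed, so this does not show that an X box is absent there. Of 32851 RefSeq promoter windows of this length, 7.23% held the Y box core, 12.2% the X box core and 1.03% both. The promoter table had entries for 4 of the 7 genes. In both H2-DMa entries neither run of letters was found, which says only that these letters are not in those windows. H2-Aa, H2-Eb1 and H2-DMb1 shared the Y box letters in these windows, while their distribution over cells differed.

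Few barcodes held a large part of the UMIs of the chain genes. In the KO-labelled library the 26 barcodes with the most UMIs of a gene (1% of barcodes) held 77.4% of H2-Aa (144 of 186 UMIs), 79.0% of H2-Eb1 (132 of 167), 49.7% of Cd74 (484 of 974) and 40.3% of H2-Ab1 (197 of 489). The 46 top barcodes of the WT-labelled library held 58.7% of H2-Aa (326 of 555 UMIs), 50.2% of H2-Eb1 (243 of 484), 31.1% of Cd74 (974 of 3133) and 32.7% of H2-Ab1 (345 of 1054). In the KO-labelled library 3 barcodes held 50% of the H2-Aa molecules, and 3 held 50% of those of H2-Eb1. For genes with 0.5 to 2 times the UMIs of H2-Aa, the median share in the top 1% was 20.7% in the KO-labelled library and 16.3% in the WT-labelled library. For genes as abundant as Cd74 it was 10.5% and 7.85%.

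H2-DMa and H2-DMb1 were not concentrated in this way. The top 1% of barcodes held 8.06% of H2-DMa in the KO-labelled library and 5.94% in the WT-labelled library, beside medians of 7.05% and 5.53% for genes of like abundance. H2-DMb1 gave 9.40% and 7.24%, beside medians of 9.48% and 7.43%. It took 333 barcodes of the KO-labelled library and 840 of the WT-labelled library to reach 50% of the H2-DMa molecules. The other class II genes detected lay with the H2-DM genes. H2-Oa, which encodes a chain of the H2-DM inhibitor H2-O, had 15.9% of its UMIs in the top 1% of barcodes labelled knock-out and 11.4% in those labelled wild type, with medians of 15.8% and 10.9% for like genes. H2-Ob, the other chain of H2-O, gave 17.1% and 15.02% with medians of 16.8% and 15.5%. H2-DMb2, a near copy of H2-DMb1 whose reads may not be fully separable from it, gave 23.8% and 22.0% with medians of 22.8% and 20.4%.

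**Figure D2:**
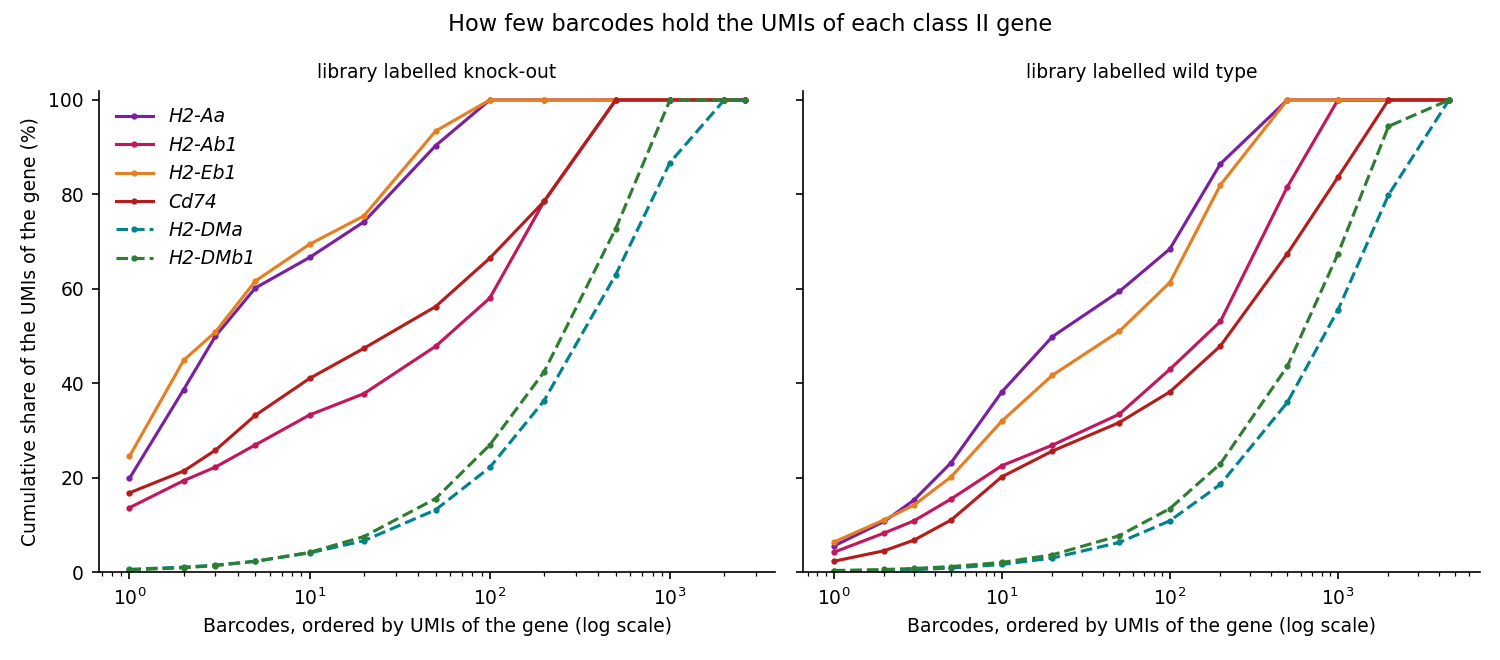
Cumulative share of the UMIs of each gene (y axis, percent) over barcodes ordered by their UMIs of that gene (x axis, log scale), for the KO-labelled library (left) and the WT-labelled library (right). Solid lines are H2-Aa, H2-Ab1, H2-Eb1 and Cd74, dashed lines H2-DMa and H2-DMb1. H2-Aa and H2-Eb1 reach 50% within 3 barcodes in the KO-labelled library, and H2-DMa needs 333.

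The chain genes were high in the same barcodes. In the KO-labelled library 5 barcodes had at least 5 UMIs of H2-Aa, and of these 4 had at least 5 of H2-Ab1, 5 of H2-Eb1 and 5 of Cd74. In the WT-labelled library 17 barcodes had at least 5 UMIs of H2-Aa, and of these 13, 14 and 16 reached 5 for H2-Ab1, H2-Eb1 and Cd74. Cd74 went beyond these: 19 barcodes labelled knock-out and 53 labelled wild type had at least 5 of its UMIs, and 10 and 27 of them had any UMI of H2-Aa. H2-DMa reached 5 UMIs in 2 of the 5 and 9 of the 17 barcodes with high H2-Aa. H2-DMb1 did so in 0 of the 5 and 0 of the 17, but its highest count in any microglia-like cell was 7 in the KO-labelled library and 8 in the WT-labelled library.

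A barcode was called class II-high when it held at least 50 UMIs of the 4 chain genes per 10000 of its UMIs. This is a range of a level and not a cell type. There were 5 class II-high barcodes in the KO-labelled library (0.193%, exact Clopper-Pearson interval 0.0626% to 0.449%) and 9 in the WT-labelled library (0.196%, 0.0899% to 0.373%). They held 35.4% of the chain gene UMIs of the KO-labelled library and 20.6% of those of the WT-labelled library. By gene, the 5 barcodes labelled knock-out held 55.9% of H2-Aa, 58.7% of H2-Eb1, 31.7% of Cd74 and 27.0% of H2-Ab1, and the 9 labelled wild type held 34.6%, 26.7%, 18.0% and 18.5%. Of the summed H2-DMa and H2-DMb1 UMIs they held 0.555% in the KO-labelled library and 0.346% in the WT-labelled library. Just outside the limit lay 1 barcode labelled knock-out at 39.96 per 10000 and 4 labelled wild type at 48.5, 48.3, 46.5 and 43.0 per 10000.

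Single barcodes carried much of this. The highest, in the KO-labelled library, held 302 chain gene UMIs of 5203 in all (37 H2-Aa, 67 H2-Ab1, 34 H2-Eb1, 164 Cd74), with 3 UMIs of H2-DMa and 1 of H2-DMb1. It alone held 16.6% of the chain gene UMIs of its library, and it was 1 of the 7 KO-labelled barcodes that lay in cluster 0 with the WT-labelled microglia-like cells. The other 4 of that library held 88, 49, 149 and 55 chain gene UMIs. In the WT-labelled library the 9 barcodes held between 69 and 169 chain gene UMIs each, in totals of 3898 to 17538 UMIs. Of the 5 Ciita UMIs seen in either library, all were in the WT-labelled library and 3 lay in 3 of its class II-high barcodes, the ones ranked 3, 4 and 8 by class II level. Barcode 8 has a sequence that the KO-labelled library holds too, as 9 barcode sequences occur in both libraries.

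**Figure D3:**
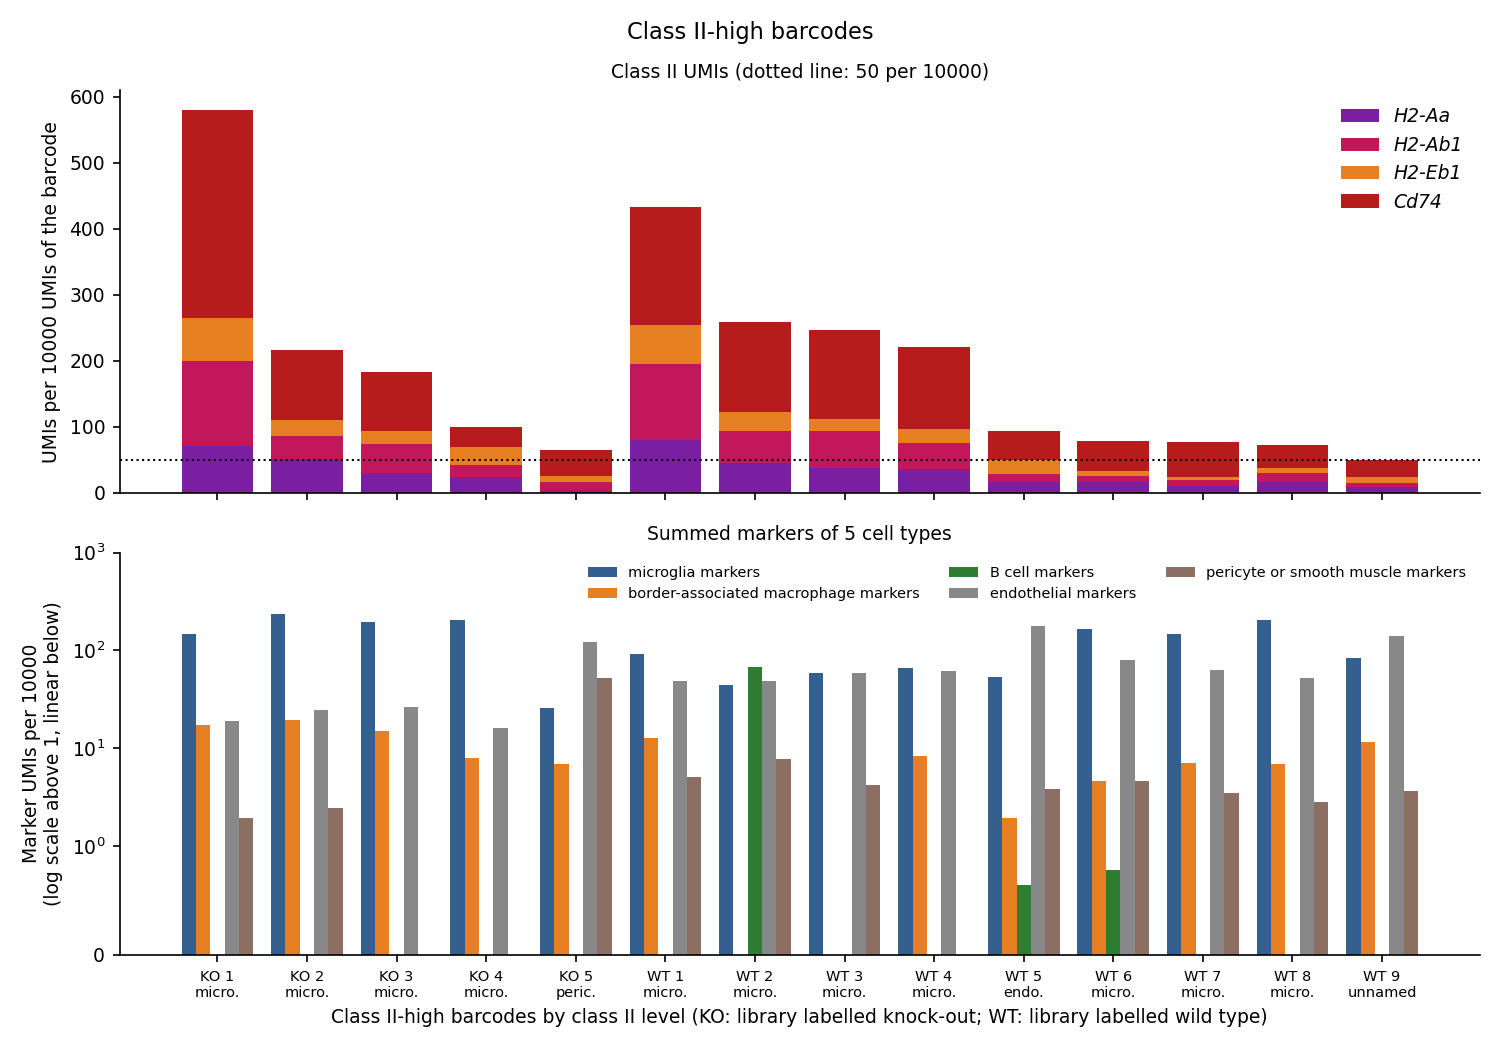
The 5 class II-high barcodes labelled knock-out (KO, left) and the 9 labelled wild type (WT, right), ordered by class II level, with the class of each under its name. The upper panel stacks UMIs of 4 chain genes per 10000 UMIs of the barcode, with a dotted line at 50, and the lower panel gives summed marker UMIs per 10000 on a log scale that is linear below 1. The level reaches 580 per 10000 in KO 1 and 434 in WT 1, and B cell markers stand out in WT 2.

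The class II-high barcodes did not share 1 marker profile. By clusters made without the class II genes, 4 of the 5 labelled knock-out and 7 of the 9 labelled wild type were microglia-like, 1 labelled knock-out was pericyte- or smooth muscle-like, and of those labelled wild type 1 was endothelial-like and 1 lay in a cluster left unnamed. The pericyte- or smooth muscle-like barcode held 105 endothelial, 45 pericyte or smooth muscle, 24 fibroblast and 22 microglia marker UMIs. The endothelial-like barcode held 274 endothelial and 84 microglia marker UMIs, and the unnamed one 194 and 115. In the unnamed cluster 33.7% of barcodes were among the highest Scrublet doublet scores, but no class II-high barcode was. Whether class II-high barcodes were mixed droplets was not tested. In the microglia-like class II-high barcodes, summed border-associated macrophage markers stood at 1229 CPM in the 4 labelled knock-out and 586 CPM in the 7 labelled wild type, against 114 and 120 CPM in the other microglia-like cells of each library. They came from 5 of 10 markers in the KO-labelled library, where Cd163, Lyve1, Cbr2, Cd209f and Folr2 were at 0, and from 8 of 10 in the WT-labelled library, where Cd209f and Folr2 were at 0. Summed microglia markers stood at 19739 CPM in the same 4 barcodes labelled knock-out and 14065 CPM in the 7 labelled wild type, against 22776 and 18370 CPM in the other microglia-like cells. B cell markers were at 0 UMIs in the 5 barcodes labelled knock-out and at 37 UMIs in the 9 labelled wild type, 35 of them in the barcode ranked 2, with 15 of Cd79a, a part of the B cell receptor. Below the limit, 1 endothelial-like barcode labelled knock-out held 17 B cell marker UMIs with 39 of Cd74, and 1 labelled wild type held 21 with 43 of Cd74. Of 9 dendritic cell markers 3 were seen in class II-high barcodes labelled knock-out (13 UMIs) and 6 in those labelled wild type (26 UMIs), and Xcr1, Clec9a and Ccr7 were at 0 in both. In the KO-labelled library their sum was at 367 CPM in class II-high barcodes, below the 543 CPM of all its microglia-like cells, where 8 of the 9 were seen. The endothelial-like barcode labelled wild type, ranked 5, held 3 UMIs of Cd209a, 1 of Flt3 and 1 of Zbtb46. Cd209a was at 0 in all 2197 microglia-like cells of the WT-labelled library, but was seen in microglia-like cells of the KO-labelled library. The part of other cell types in these barcodes was not tested.

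Ranked by the lower of the ratios in the libraries, the 10 genes outside the class II family with the highest ratio in class II-high barcodes over all others were Pf4, Lyz2, Lgals1, Ms4a6c, Cd52, Pim1, Apoe, Hcls1, Maf and Plxnb2. The others are barcodes of all classes, so this ranking does not separate class II level from cell class. In the KO-labelled library Plxnb2, Lgals1, Ms4a6c, Pim1 and Hcls1 rested on 5, 6, 7, 7 and 10 UMIs. There 1 barcode held 80% of the Hcls1 UMIs and 1 held 52.1% of those of Apoe. Pf4, a chemokine made by border macrophages and platelets, was at 395 CPM in class II-high barcodes labelled knock-out and 298 CPM in those labelled wild type, against 10.6 and 14.8 CPM in the remaining barcodes of all classes. Lyz2, the lysozyme of macrophages and neutrophils, was at 6775 and 2891 CPM against 70.8 and 415 CPM. The highest barcode labelled knock-out held 73.3% of the Lyz2 UMIs of its group, 176 of 240. When the class II genes were allowed to shape the clusters, 4 barcodes labelled knock-out and 16 labelled wild type formed a cluster of their own, led by H2-Aa, Cd74, H2-Eb1, H2-Ab1, Ly6d and Lyz2, with both macrophage (Pf4, Mgl2, Ms4a7) and B cell (Cd79a) genes among its top 10.

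The H2-DM genes differed far less between class II-high barcodes and the other microglia-like cells than the chain genes, on whose counts these barcodes were selected. H2-DMa was at 508 CPM in class II-high barcodes labelled knock-out (18 UMIs) and 441 CPM in those labelled wild type (40 UMIs), against 462 and 424 CPM in the other microglia-like cells. For Cd74 the same values were 8722 and 6213 CPM, against 80.3 and 94.9 CPM. The class II-high barcodes here are those of all classes, 5 labelled knock-out and 9 labelled wild type. There were 0.0420 H2-DM UMIs per chain gene UMI in class II-high barcodes labelled knock-out and 0.0491 in those labelled wild type. Selection on chain gene counts lowers this ratio by itself. In the other microglia-like cells there were 4.65 in the KO-labelled library and 4.02 in the WT-labelled library.

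Between the libraries, none of the class II genes at 20 CPM or more differed 2-fold in microglia-like cells. Of 7 genes, 6 had at least 20 CPM in a library, and 0 of these 6 were past 2-fold, while 7.2% of all 5749 genes at that level were (1.83% higher and 5.37% lower in the KO-labelled library). Beside that share, 0 among 6 genes says little about them as a group. Ratios are log2 of the CPM labelled knock-out over the CPM labelled wild type, with exact conditional binomial 95% intervals, and the median over all 5749 genes was -0.04. H2-Ab1 had the largest ratio, 0.69 (0.50 to 0.87), and was the only one of the 6 past 1.5-fold, where 20.4% of all genes were. H2-Eb1 was at 0.47 (0.15 to 0.79), higher in the KO-labelled library on its counts, and it reached 20 CPM only in that library. H2-Aa was at 0.25 (-0.04 to 0.54), an interval that includes 0. The ratio was 0.12 (0.06 to 0.19) for H2-DMa and 0.20 (0.09 to 0.31) for H2-DMb1, and Cd74 was at 0.01 (-0.11 to 0.14). The median over the 6 genes was 0.23.

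For the chain genes the direction rested on few barcodes. Summed, they were at 229.9 CPM in microglia-like cells labelled knock-out and 196.0 CPM in those labelled wild type, a log2 ratio of 0.23 (0.14 to 0.32). Without the 4 class II-high barcodes labelled knock-out and the 7 labelled wild type, the sums were 135.3 and 142.0 CPM and the ratio -0.07 (-0.19 to 0.05). Leaving out the highest barcode labelled knock-out alone gave -0.11. Without the barcode sequences that both libraries hold, which include 1 class II-high barcode labelled wild type, it was 0.29. Outside class II-high barcodes H2-Eb1 was lower in the KO-labelled library, 5.85 against 9.24 CPM with a ratio of -0.66 (-1.23 to -0.12). In endothelial-like cells H2-Eb1 was at 6.23 against 10.03 CPM, a like ratio of -0.69 (-1.37 to -0.06), at levels as high as in microglia-like cells. In microglia-like cells outside class II-high barcodes Cd74 was also lower, 80.3 against 94.9 CPM with a ratio of -0.24 (-0.39 to -0.09). H2-Aa was at 7.64 against 10.4 CPM there, -0.45 (-0.95 to 0.02). H2-Ab1 remained higher in the KO-labelled library, 41.5 against 27.4 CPM with a ratio of 0.60 (0.37 to 0.82). The make-up of the chain gene UMIs differed with it: H2-Ab1 made up 30.6% of them in these cells labelled knock-out and 19.3% in those labelled wild type, while Cd74 made up 59.4% and 66.8%. The ratios of H2-DMa and H2-DMb1 stayed at 0.12 and 0.20, but both turned once counts taken as free RNA were subtracted, to -0.080 and -0.072. The background share used was unequal, 20.2% for the KO-labelled library and 50.2% for the WT-labelled library. Its part in the change of sign was not tested.

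**Figure D4:**
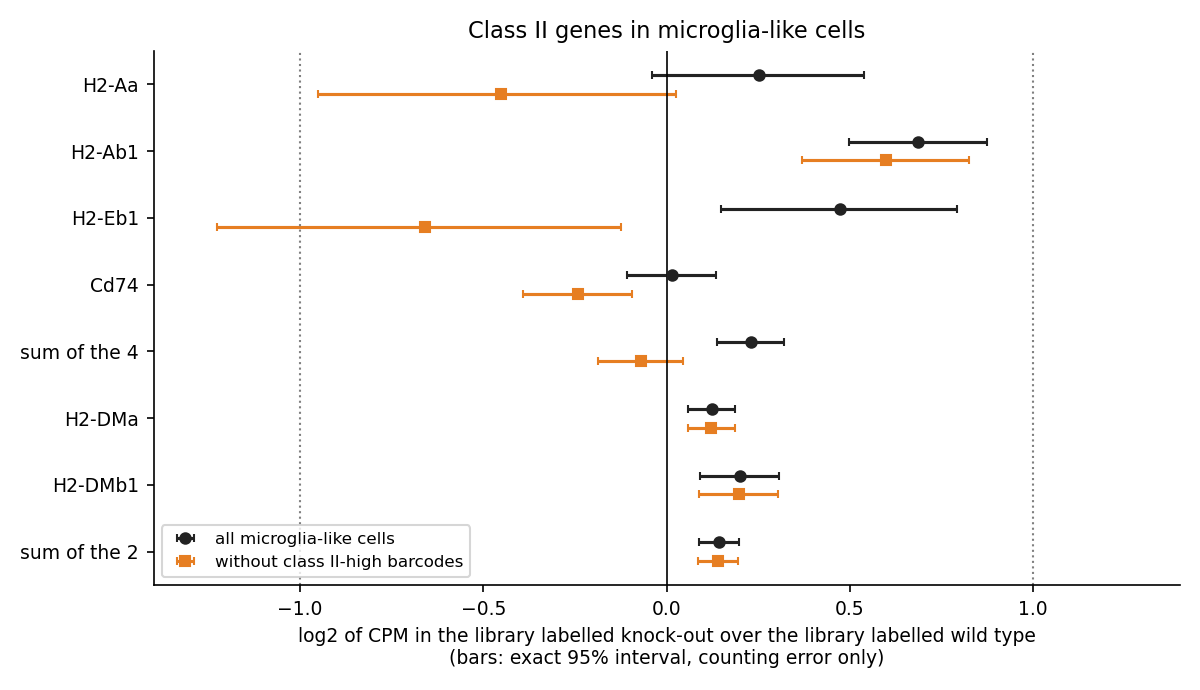
Log2 ratio of CPM in the KO-labelled library over the WT-labelled library in microglia-like cells, for all cells (circles) and without class II-high barcodes (squares), with exact 95% intervals for counting error. Dotted lines mark a 2-fold difference. The sum of the 4 chain genes is at 0.23 over all cells and at -0.07 without class II-high barcodes, and the sum of the 2 H2-DM genes stays at 0.14.

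Clustering at a finer resolution (1.0) split the microglia-like cells of each library, again without the class II genes. The top genes of a cluster are those highest over all other cells of both libraries and all classes. They therefore mark the library too, and do not show what separates the clusters of 1 library. In the KO-labelled library a cluster of 851 cells was led by Cebpb, Marcksl1 and Cfp and included Socs3, Zfp36 and Nr4a1, and one of 498 cells was led by Cfp, AB124611 and Crybb1 and included P2ry12. In the WT-labelled library a cluster of 1251 cells was led by Ccl3, Lyz2 and Cxcl2, with Cd74 itself also among its top 10 genes, and one of 940 cells by Gpr34, Rgs1 and Olfml3. Leaving out class II-high barcodes, Cd74 was at 96.7 CPM (87.7 to 106) in the first cluster labelled knock-out and 40.1 CPM (31.2 to 50.7) in the other. In the WT-labelled library it was at 102.7 CPM (96.9 to 109) in the chemokine-led cluster and 75.5 CPM (67.7 to 84.1) in the other. For H2-Ab1 the intervals of the clusters overlapped, at 41.4 and 42.4 CPM in the clusters labelled knock-out and 26.6 and 29.6 CPM in those labelled wild type. H2-DMa was at 442 and 512 CPM labelled knock-out and 420 and 437 CPM labelled wild type. The clusters differ in depth, with median UMIs of 4010.5 and 2961.5 labelled knock-out and 7622 and 4167.5 labelled wild type, and the part of depth in these levels was not tested.

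Class II counts in other classes give the background against which the microglia-like levels are read, since free RNA can reach any droplet. With each cell thinned to 1500 UMIs, H2-DMa was seen in 47.8% of microglia-like cells labelled knock-out and 46.4% of those labelled wild type, against 9.57% and 23.7% of endothelial-like cells. Unthinned, the microglia-like shares were 77.6% and 89.4%. The H2-DMa share was higher in microglia-like cells in both libraries. Cd74 was seen in 9.93% and 13.2% of thinned microglia-like cells, against 2.63% and 5.37% of endothelial-like cells. H2-Ab1 was seen in 5.74% and 4.46%, against 2.27% and 2.99%. For H2-Aa the shares were 1.25% and 1.73%, against 0.478% and 1.28%, and for H2-Eb1 1.18% and 1.59%, against 0.239% and 0.977%. The intervals of H2-Aa and H2-Eb1 overlapped between the classes in both libraries, and whether these shares are above free RNA was not tested. Median UMIs before thinning were 3476 and 5530 in microglia-like and 3599.5 and 5964 in endothelial-like cells. Outside class II-high barcodes, the endothelial-like level of H2-Eb1 was 106% of the microglia-like level in the KO-labelled library and 109% in the WT-labelled library. That of H2-DMa was 14.5% and 45.4%, and that of the summed microglia markers was 11.7% and 29.5%.

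Endothelial-like cells had less H2-DMa in the KO-labelled library, at 66.8 against 193 CPM and a log2 ratio of -1.53 (-1.72 to -1.34). H2-DMb1 was at 25.9 against 48.7 CPM (-0.91) and Cd74 at 27.7 against 47.6 CPM (-0.78). Among the 6282 genes at 20 CPM or more in these cells 3.58% were past 2-fold (0.716% higher and 2.87% lower in the KO-labelled library), and of the 3 class II genes at that level 1, H2-DMa, was lower. Below 20 CPM, H2-Eb1 (6.23 and 12.6 CPM, -1.02), H2-Oa (7.23 and 18.3 CPM, -1.34) and H2-DMb2 (2.24 and 5.01 CPM, -1.16) were also past 2-fold, with class II-high barcodes left in. H2-Ab1 (-0.38), H2-Aa (-0.62) and H2-Ob (-0.83) were not. The endothelial-like cells lay mostly in cluster 3 (792 of 836) in the KO-labelled library and in cluster 1 (1551 of 1638) in the WT-labelled library. Summed microglia markers moved alongside, at 2662 CPM in endothelial-like cells labelled knock-out and 5423 CPM in those labelled wild type, all 12 of 12 detected in both, and their part in the result was not tested. In the small endothelial-like cluster led by Ackr1, Vcam1 and Lcn2, Cd74 was at 149 CPM in 28 cells labelled knock-out and 31.98 CPM in 86 labelled wild type. Of those 46 UMIs labelled knock-out, 39 came from the single barcode that also held B cell markers. Pericyte- or smooth muscle-like cells had 87.7 CPM of the summed chain genes in the KO-labelled library and 89.5 CPM in the WT-labelled library, and 163 and 271 CPM of the summed H2-DM genes. The chain gene level of the KO-labelled library rested on 1 class II-high barcode, which held 55 of the 80 UMIs: without it the level was 27.7 CPM (17.9 to 40.8) in the KO-labelled library, against 89.5 CPM (77.3 to 103) in the WT-labelled library. In these cells 0 of the 3 members at 20 CPM or more (H2-DMa, H2-DMb1 and Cd74) were past 2-fold, while 5.12% of 6738 genes were (2.55% higher and 2.57% lower in the KO-labelled library). For so few genes, 0 past 2-fold says little. H2-Oa, a class II gene outside the 7, was past it, at 10.96 CPM (10 UMIs) in the KO-labelled library and 22.97 CPM (49 UMIs) in the WT-labelled library, a log2 ratio of -1.07 (-2.21 to -0.07).

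Most X and Y box factors were measured at 20 CPM or more, unlike Ciita itself. Of 7 factors that bind the X and Y boxes, 6 had at least 20 CPM in microglia-like cells of a library and 0 were past 2-fold. Rfxank, a subunit of RFX, was at 10.7 CPM in the KO-labelled library and 20.4 CPM in the WT-labelled library (log2 ratio -0.93). Nfya, a subunit of NF-Y, was at 34.0 and 19.7 CPM (0.78). On the interferon gamma route to Ciita 5 of 8 genes were at that level and 0 past 2-fold, with the kinase gene Jak1 at 162 and 107 CPM (0.60). Of 13 interferon gamma targets 6 were at that level, 0 were past 2-fold and their median was -0.20, with the GTPase gene Gbp7 at 29.5 and 39.8 CPM (-0.44) and the chemokine gene Cxcl10 at 64.7 and 82.1 CPM (-0.34). The myeloid regulators Spi1 (422 and 385 CPM, 0.13) and Irf8 (499 and 568 CPM, -0.19) were the 2 of 5 on their list at that level, and 0 were past 2-fold. Over all 5749 genes at that level 7.2% were, so 0 among so few genes says little about a list. Genes below 20 CPM were not counted. Of these, Ifng (2 UMIs in each library) and the interferon gamma targets Ifi47 (3.72 and 9.14 CPM, -1.30) and Cxcl9 (0.162 and 0.757 CPM, -2.22) were past 2-fold. Ifi47 was higher in endothelial-like cells, at 50.6 CPM labelled knock-out and 29.9 CPM labelled wild type, and Cxcl9 was at 0 CPM there.

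At 20 CPM or more, genes that act on class II after it is made were also within 2-fold. All 8 endosomal processing genes reached 20 CPM and their median ratio was -0.34, against -0.04 over all genes. Ctss, the protease that cuts the invariant chain, was at 4414 CPM in microglia-like cells labelled knock-out and 6931 CPM in those labelled wild type (-0.65), and Ifi30, an endosomal thiol reductase, at 85.5 and 116 CPM (-0.44). All 3 class II turnover genes reached 20 CPM, 2 with a ratio above 0 and 1 below. March8, a ubiquitin ligase of membrane proteins, was at 21.0 and 11.8 CPM (0.84), and Cd83, which is known to stabilise surface class II, at 1854 and 1189 CPM (0.64). The third, March1, a ubiquitin ligase that acts on class II, was at 46.6 and 64.6 CPM (-0.47) and is named after its values were seen. Of 6 co-signal genes 2 reached the level, Cd86 at 203 and 163 CPM (0.31) and Icosl at 25.1 and 28.7 CPM (-0.20). Mif, which encodes a ligand of the invariant chain, was the 1 of 4 in its list to reach it, at 177 and 244 CPM (-0.46). None of these lists had a gene past 2-fold among those at 20 CPM, beside 7.2% of all 5749 genes at that level. Below it, the co-signal gene Cd80 (13.1 and 6.43 CPM, 1.03) and, from the list of Mif, Cxcr4 (3.24 and 1.07 CPM, 1.59) were past 2-fold. H2-Ob (39.5 and 22.7 CPM, 0.80) and H2-DMb2 (20.1 and 11.7 CPM, 0.78) were higher in the KO-labelled library on their counts, H2-Oa was at 52.0 and 49.0 CPM (0.08), and H2-Eb2 had 0 UMIs in microglia-like cells of both libraries.

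Across the 15 sums of a class and a library with at least 15 cells, H2-DM and chain gene levels went with different genes. The summed H2-DM genes were most like Aif1 (Pearson r 0.99), Vsir, Laptm5, Fcgr3, Cd84, Siglech, Rhoh and Cyth4, among 5945 genes. Aif1, the gene of the myeloid protein Iba1, was at 886 and 834 CPM in microglia-like cells and 150 and 361 CPM in endothelial-like cells of the KO-labelled and WT-labelled libraries. The summed chain genes were most like Gm26825 (r 0.94), Aga, Tmem55b, Ctsl, Eef1b2, Lsp1, Erp29 and Stx7. The sums include the class II-high barcodes. In microglia-like cells these held 41.4% of the chain gene UMIs labelled knock-out and 27.8% of those labelled wild type. In pericyte- or smooth muscle-like cells labelled knock-out 1 such barcode held 68.8%. The genes most like the chain genes therefore rest in part on few barcodes. These sums also share libraries and free RNA, and the correlations are given as a description.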

How the data were processed

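Raw UMI counts per gene and barcode were used as the authors deposited them. STAR, Cell Ranger 2.0.1, Seurat 2.1.0 and the builds mm10 and GRCm38.p5 are named in the submitters' processing notes, without their roles. The sources used here do not say how barcodes were called or how reads mapping to several genes were counted. Barcodes under 300 genes or over 10% mitochondrial UMIs were left out. Both libraries were clustered together in scanpy 1.11.5 without batch correction (2000 variable genes without the class II genes, Runx1 and sex-linked genes, 30 components, 15 neighbours, Leiden resolution 0.5 with leidenalg 0.10.2). Clusters were named "X-like" from marker lists when at least 3 markers led them, by a scoring set after the clusters were seen. Doublets were left in, and leaving out the highest Scrublet scores (54 barcodes labelled knock-out, 168 labelled wild type) was an alternative.

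UMIs were summed per class and library and divided by all UMIs of the class (CPM). With 1 library per group no test was made and no p-value is given. Intervals are 95% and were computed with scipy 1.17.1 (exact Poisson for CPM, Clopper-Pearson for shares, conditional binomial for ratios). They cover counting error only. The upper limit for a count of 0 is 3 counts. Ratio and concentration code was tested on simulated data. Named genes are all members, all other class II genes, the 2 list genes with the largest ratio at 20 CPM or more, the 8 genes most like each sum (log2(CPM + 10), at least 50 CPM), the 10 genes highest in class II-high barcodes (pseudocount 20 CPM, at least 100 CPM) and genes that bear on a value. The members and lists were chosen with earlier results of these data known. A result of 1 list gene is not reported here.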

Additional observations from a re-analysis of the deposited data

Results flagged for a closer look

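For 2 class II genes the difference between the libraries had opposite signs in 2 cell classes. H2-DMa had a log2 ratio (knock-out label over wild type label) of -1.53 in endothelial-like cells and 0.12 in microglia-like cells. H2-DMb1 had -0.91 in endothelial-like cells and 0.20 in microglia-like cells. The difference between the classes was not tested, because there is 1 library per group. Summed microglia markers in endothelial-like cells were at 2662 CPM in the library labelled knock-out and 5423 CPM in the library labelled wild type, and their part was not tested.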

How the results depend on the processing

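No paired analysis was possible because each group has 1 library. The log2 ratio of the 4 chain genes in microglia-like cells, 0.23, became 0.063 with each cell weighted equally, 0.0090 with cells thinned to 1500 UMIs, 0.35 at resolution 1.0 and 0.012 with the class II genes among the variable genes. It turned to -0.070 without class II-high barcodes, -0.0011 after background subtraction, -0.068 without barcodes of at least 20 per 10000, -0.11 (-0.108) without barcodes lying in the other library's cluster and -0.11 (-0.114) without the highest barcode labelled knock-out. After background subtraction the H2-DM ratio, 0.14, turned to -0.078, H2-DMa to -0.080 and H2-DMb1 to -0.072. The background share used was 20.2% labelled knock-out and 50.2% labelled wild type. H2-Eb1 turned to -0.66 without class II-high barcodes, -0.48 with the class II genes among the variable genes and -0.63 without barcodes of at least 20 per 10000. At 1.5-fold 1 gene was past the limit in place of 0. The chain gene level labelled knock-out was 205.7 CPM weighted, 209.5 thinned and 135.3 without class II-high barcodes, and labelled wild type 208.2 thinned and 142.0 without them. Chain gene UMIs in the top barcodes, labelled knock-out and wild type, were 44.4% and 30.1% for the top 0.5%, 65.3% and 49.0% for the top 5%, and 46.7% and 35.6% thinned. For the H2-DM genes they were 4.46% and 3.32%, 24.9% and 20.1%, and thinned 6.47% labelled wild type. A limit of 20 per 10000 gave 10 and 17 class II-high barcodes, and one of 100 gave 3 and 4. The other 56 values of these results, and 69 of 96 values for single genes, moved by less than their counting interval or 1.5 times. Alternatives by the cluster of the other library, by 20 per 10000 on the ratio, by the highest barcode, by shared barcode sequences and by class II genes among the variable genes were chosen after seeing the data. The causes were not tested. Depth limits H2-Aa, H2-Eb1 and Ciita most, with 186, 167 and 0 UMIs in the library labelled knock-out.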
